A study of Mus musculus with 8 samples.

Results

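Cyclin B, CDK1 and prophase arrest genes were followed as 10 named genes (Ccnb1, Ccnb2, Ccnb3, Cdk1, Wee2, Pkmyt1, Cdc25b, Mos, Gpr3 and Pde3a), taken by symbol from a table of 21959 genes. All 10 were in the table, and all 10 were among the 11235 genes that passed a filter on low values. The oocytes came from mouse ovaries at postnatal day 1, either from Rbpms2 knockout mice (KO) or from wild-type mice (WT), with 4 libraries per genotype. Each library was made from 5 to 10 hand-picked putative primordial oocytes in a tube, whose mRNA was amplified for 18 cycles. The labels give neither the deleted part of Rbpms2 nor the strain. Nor do they tie tubes to animals, so every p-value reflects tube-to-tube spread, part of which may be technical. Levels are FPKM, that is, fragments scaled to exon length and library size. A gene was called when its limma p-value, adjusted by Benjamini-Hochberg over all tested genes, was under 0.05 on the log2(FPKM + 1) scale.

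Rbpms2 encodes an RNA-binding protein. Its own RNA stood at 38.4, 58.3, 31.0 and 42.5 FPKM in KO replicates 1 to 4, against 158.1, 167.4, 135.8 and 212.8 FPKM in WT replicates 1 to 4. Which part of the transcript these reads cover cannot be read from values per gene. The libraries held 9564423 to 14542886 reads in KO and 8321939 to 11941363 reads in WT, as recovered from the steps of the values. Of 8 markers of oocytes and germ cells, 3 were higher and 5 lower in KO, and they summed to 1764 to 2759 FPKM in KO and 4347 to 6687 FPKM in WT. Dazl was at 379.1 to 655.7 FPKM in KO and 184.5 to 315.5 FPKM in WT, while Zp3, a gene of the oocyte coat, was at 0 to 0.444 FPKM in KO and 443.8 to 1091 FPKM in WT. Markers of other cells were uneven between tubes. The 10 granulosa cell markers summed to 8.18 to 293.4 FPKM in KO and 1.39 to 30.3 FPKM in WT, highest in replicate 3 of both, and 1 of 6 tested was called higher. Stromal markers summed to 12.8 to 401.6 FPKM in KO and 3.91 to 81.8 FPKM in WT, immune markers to 17.2 to 454.9 FPKM in KO and 7.05 to 24.0 FPKM in WT, and endothelial markers to 335.6 FPKM in KO replicate 1 against at most 6.89 FPKM in every other library. Erythroid markers summed to 99.6 to 3212 FPKM in KO and 11.9 to 5368 FPKM in WT, and 3 of the 8 were at 0 in every KO library. Of the tested markers of these 4 types, 1 stromal, 2 immune, 0 endothelial and 0 erythroid genes were called higher and 0 lower. The part of such cells in the values below was not tested. In the libraries of pooled cells, fewer cells of a type and less RNA per cell cannot be told apart.

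Fully grown and growing oocytes are held in prophase of the first meiotic division because CDK1, the kinase that drives entry into division, is kept inactive. CDK1 needs a B-type cyclin as its partner, and the kinases WEE2 and MYT1 (the product of Pkmyt1) block it by phosphorylation, which CDC25B removes. GPR3 keeps cAMP high in the oocyte through the stimulatory G protein, cAMP activates protein kinase A, and PDE3A breaks cAMP down when the arrest ends. MOS starts the MAP kinase cascade that later holds the mature egg at metaphase of the second division.

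Ccnb3 was higher in KO, the 3 genes for the core of the kinase (Ccnb1, Ccnb2 and Cdk1) were not called, and the 6 genes for its brakes, its releasing phosphatase and the cAMP and MOS pathways fell. Thus 7 of 10 were called, where 43.4% of all tested genes were. Of these, 1 was higher, where 17.7% of all tested genes were higher, and 6 were lower, where 25.6% were lower. In 7 of the 10 genes every KO library lay on one side of every WT library, against 39.9% of all tested genes. Wee2, Mos and Gpr3 reached 1 FPKM in no KO library and entered the test through the WT libraries alone, so the filter itself requires them to differ.

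**Figure D1:**
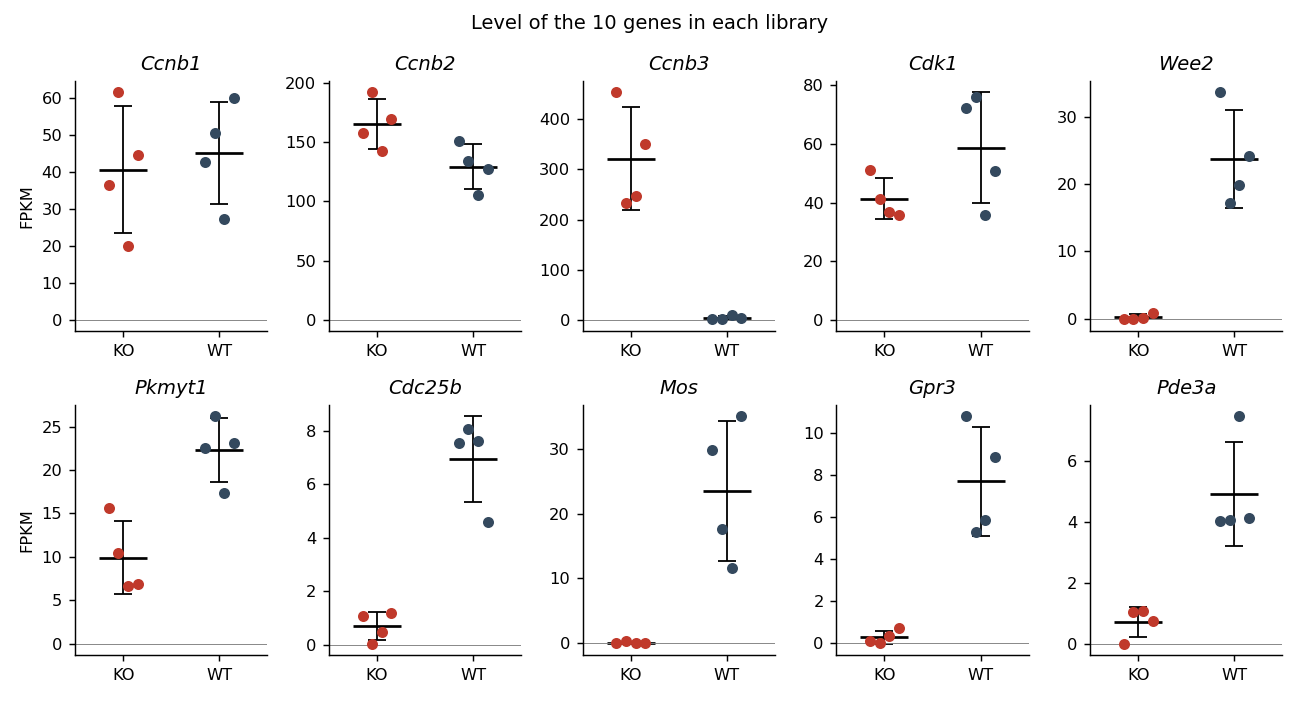
FPKM of each of the 10 genes in the 4 KO libraries (left, red) and the 4 WT libraries (right, dark), with the group mean as a bar and the SD as the error bar. Ccnb3 lies between 234.0 and 453.9 FPKM in KO and at 9.08 FPKM or below in WT, while Wee2, Mos and Gpr3 lie below 1 FPKM in every KO library.

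Ccnb3 encodes a B-type cyclin which in mouse oocytes is needed for anaphase of the first meiotic division. The gene (ENSMUSG00000051592) lies on the minus strand of chromosome X from 6979652 to 7041619 in GRCm38 and is protein coding. It had 453.9, 234.0, 247.3 and 350.4 FPKM in KO replicates 1 to 4 and 1.69, 0.705, 9.08 and 2.92 FPKM in WT replicates 1 to 4. The lowest KO library was thus far above the highest WT library, and in WT replicate 3 stood above the rest. The means were 321.4 ± 102.5 FPKM in KO and 3.60 ± 3.77 FPKM in WT (SD, n = 4 each), an 89.3-fold higher level in KO. On the log2(FPKM + 1) scale the difference was 6.40 with a standard error of 0.47 (95% confidence interval 5.38 to 7.43). By limma its adjusted p was 4.56e-06, and an exact permutation test, two-sided, gave p = 0.0286. No smaller permutation p can be had from 4 libraries a side. It ranked 4 among all 11235 tested genes by rise. The WT level rested on 585 reads over 4 libraries and the KO level on 68529. Without WT replicate 3 and KO replicates 2 and 3, the libraries richest in granulosa and stromal markers, the difference was 7.25 (limma adjusted p = 1.81e-05).

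None of the 2 nearest protein-coding genes on either side of Ccnb3 on chromosome X was called higher. Shroom4, at the lower coordinates, was at 0.879 to 1.59 FPKM in KO and 7.57 to 13.2 FPKM in WT (limma adjusted p = 7.74e-05). Clcn5, at the higher coordinates, was at 0.62 to 4.82 FPKM in KO and 3.84 to 8.13 FPKM in WT (limma adjusted p = 0.0347). Dgkk stayed at or below 0.196 FPKM in KO and 0.558 FPKM in WT, and Akap4 was at 0 in every KO library and at or below 0.754 FPKM in WT. Both were under the filter. No annotated gene overlaps Ccnb3 in GENCODE M21.

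Ccnb1 and Ccnb2 encode the cyclins that partner CDK1 in both mitosis and meiosis. Ccnb1 (ENSMUSG00000041431, chromosome 13, minus strand, 100778650 to 100786570) had 36.4, 61.5, 20.05 and 44.6 FPKM in KO replicates 1 to 4 and 42.6, 50.5, 27.4 and 60.0 FPKM in WT replicates 1 to 4. The groups overlapped over most of their range, and replicate 3 was the lowest in both genotypes. The difference of -0.20 on the log2(FPKM + 1) scale had a 95% confidence interval from -0.95 to 0.55 (limma adjusted p = 0.661).

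Ccnb2 (ENSMUSG00000032218, chromosome 9, minus strand, 70407692 to 70421547) had 157.4, 191.9, 142.3 and 169.8 FPKM in KO replicates 1 to 4 and 151.2, 134.1, 105.0 and 127.0 FPKM in WT replicates 1 to 4. Only the lowest KO library fell within the WT range. On the log2(FPKM + 1) scale Ccnb2 differed by 0.36, with a 95% confidence interval from -0.03 to 0.74 (limma adjusted p = 0.121, with p = 0.0571 by the exact permutation test). GENCODE M21 lists processed pseudogenes for both, Ccnb1-ps on chromosome 7 and Ccnb2-ps on chromosome 8, and how reads that match a gene and its copy were assigned is not given in the sources used here.

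FPKM is scaled here to all annotated exons of a gene, 4217 bases for Ccnb1, 1531 for Ccnb2 and 4566 for Ccnb3. Which transcripts the oocytes use was not examined, so comparisons between genes within a library are approximate. Together the 3 cyclin genes summed to 647.6, 487.4, 409.6 and 564.9 FPKM in KO replicates 1 to 4. In WT replicates 1 to 4 they summed to 195.5, 185.3, 141.5 and 189.9 FPKM. Ccnb3 made up 70.1%, 48.0%, 60.4% and 62.0% of that sum in KO replicates 1 to 4, against 0.863%, 0.381%, 6.42% and 1.54% in WT replicates 1 to 4. In WT most of the sum was Ccnb2, with 66.9% to 77.4%. The summed cyclin B level was 11.1 to 15.7 times that of Cdk1 in KO libraries and 2.44 to 3.95 times in WT libraries. These shares follow from the rise of Ccnb3 and were not tested apart from it.

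**Figure D2:**
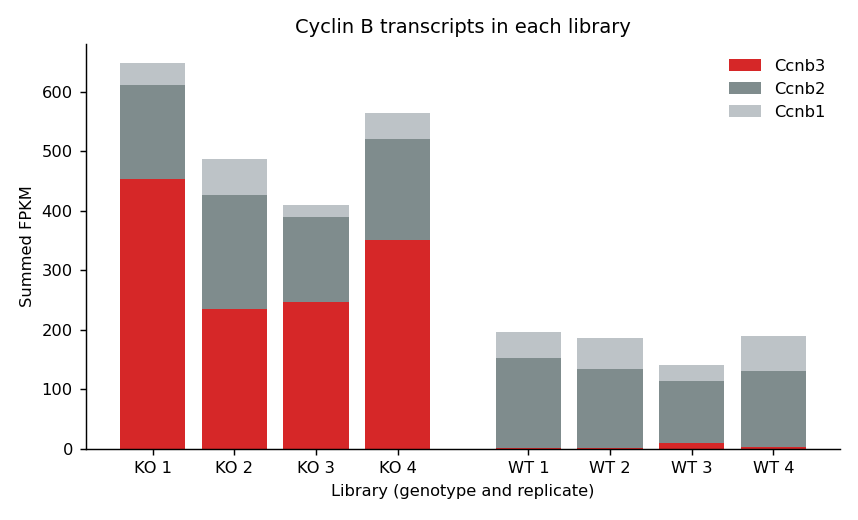
Summed FPKM of Ccnb3 (red), Ccnb2 (dark grey) and Ccnb1 (light grey) in each library, KO replicates on the left and WT replicates on the right. The red part reaches 48.0% to 70.1% of the bar in KO and 0.381% to 6.42% in WT, while the grey parts overlap between the genotypes.

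Cdk1 (ENSMUSG00000019942, chromosome 10, minus strand, 69335146 to 69352938), which encodes the kinase, had 51.2, 41.4, 36.8 and 35.9 FPKM in KO replicates 1 to 4 and 72.3, 75.9, 35.8 and 50.8 FPKM in WT replicates 1 to 4. The lowest library of all was WT replicate 3, so the groups overlapped across the KO range. The means were 41.3 ± 7.02 FPKM in KO and 58.7 ± 18.9 FPKM in WT (SD, n = 4 each). The difference on the log2(FPKM + 1) scale was -0.45, with a 95% confidence interval from -1.01 to 0.11 (limma adjusted p = 0.172). Without WT replicate 3 it was -0.66 and was called (limma adjusted p = 0.0367). Leaving out KO replicates 2 and 3 as well gave -0.60 and no call (limma adjusted p = 0.0930). The call thus varied with the libraries used.

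Promoters of the cyclins and of Cdk1 and Wee2 are shown because the cyclin genes moved apart. The sequences are the 250 bases before the start of each gene from RefSeq in GRCm38.p6, read 5′ to 3′ on the gene's strand. Capitals mark matches, on either strand, to CCAAT, the box bound by NF-Y, and to TTTGAA, the cell cycle genes homology region. Ccnb3 is at chrX:7041620-7041869, Ccnb1 at chr13:100786487-100786736, Ccnb2 at chr9:70421555-70421804 and Cdk1 at chr10:69352913-69353162, all on the minus strand, and Wee2 is at chr6:40442613-40442862 on the plus strand.
Ccnb3: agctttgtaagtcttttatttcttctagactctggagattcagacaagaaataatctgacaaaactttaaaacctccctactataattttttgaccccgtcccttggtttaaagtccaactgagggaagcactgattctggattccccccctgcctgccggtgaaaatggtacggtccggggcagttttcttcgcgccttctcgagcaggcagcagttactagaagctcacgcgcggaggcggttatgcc
Ccnb1: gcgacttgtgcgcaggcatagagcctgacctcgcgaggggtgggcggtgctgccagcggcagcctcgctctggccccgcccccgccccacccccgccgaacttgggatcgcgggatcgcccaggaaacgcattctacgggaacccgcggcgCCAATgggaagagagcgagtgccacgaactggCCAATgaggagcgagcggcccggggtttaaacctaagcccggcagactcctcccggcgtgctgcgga
Ccnb2: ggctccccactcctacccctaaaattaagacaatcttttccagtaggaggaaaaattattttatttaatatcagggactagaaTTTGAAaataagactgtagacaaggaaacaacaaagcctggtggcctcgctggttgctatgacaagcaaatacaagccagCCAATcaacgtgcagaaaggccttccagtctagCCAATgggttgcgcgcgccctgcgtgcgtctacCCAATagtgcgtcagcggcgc
Cdk1: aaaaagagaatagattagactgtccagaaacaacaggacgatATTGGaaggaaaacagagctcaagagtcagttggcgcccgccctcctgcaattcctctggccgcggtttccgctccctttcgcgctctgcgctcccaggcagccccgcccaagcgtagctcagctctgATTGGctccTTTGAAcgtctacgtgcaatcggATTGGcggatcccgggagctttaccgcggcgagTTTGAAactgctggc
Wee2: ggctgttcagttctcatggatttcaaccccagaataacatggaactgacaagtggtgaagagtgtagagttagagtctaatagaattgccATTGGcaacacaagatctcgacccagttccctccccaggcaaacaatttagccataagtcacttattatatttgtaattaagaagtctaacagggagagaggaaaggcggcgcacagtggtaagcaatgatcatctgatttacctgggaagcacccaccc
CCAAT occurred 2 times in the Ccnb1 window, 3 times in that of Ccnb2 and 3 times in that of Cdk1, and TTTGAA 1 time in Ccnb2 and 2 times in Cdk1. The Ccnb3 window held neither of these spellings. Other spellings of the homology region were not searched. Wee2, Cdc25b and Gpr3 held 1 CCAAT each. Of all 32851 promoters of the same length, 33.8% held CCAAT and 16.0% held TTTGAA. Further motifs were searched on both strands, namely TAATTG (the NOBOX element, in 7.17% of promoters), CACGTG (an E-box, in 6.02%), CNCCTCAG (the STRA8 motif, in 6.42%) and GCGGGAA (an E2F motif, in 3.82%), and none occurred in the 7 members' windows. Promoters of 7 of the 10 genes were in the table. The CpG count of the window was 11 for Ccnb3, 28 for Ccnb1, 10 for Ccnb2, 19 for Cdk1 and 3 for Wee2, against a median of 6 over all promoters. The RefSeq starts of Wee2, Ccnb1 and Cdk1 lie inside the genes as GENCODE M21 draws them, so their windows overlap those gene models, and those of Ccnb3 and Ccnb2 do not.

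WEE2 and MYT1 are the kinases that block CDK1, WEE2 being the oocyte's own form of WEE1. Wee2 (ENSMUSG00000037159, chromosome 6, plus strand, 40439088 to 40466813) had 0, 0, 0.053 and 0.83 FPKM in KO replicates 1 to 4 and 33.7, 17.2, 19.8 and 24.3 FPKM in WT replicates 1 to 4. Its 27 reads in KO came almost all from replicate 4, with 25, and none from replicates 1 and 2, where 3 reads would have given 0.0817 and 0.0657 FPKM. WT libraries held 2958 reads of it. The mean was 107.2-fold lower in KO, and the difference on the log2(FPKM + 1) scale was -4.35 (SE 0.31, limma adjusted p = 4.20e-06). Because no KO library reached 1 FPKM, the filter alone fixed p = 0.0286 in the exact permutation test, which adds no support.

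Pkmyt1 (ENSMUSG00000023908, chromosome 17, plus strand, 23726336 to 23736735) had 15.6, 10.5, 6.61 and 6.86 FPKM in KO replicates 1 to 4 and 22.5, 26.2, 17.3 and 23.1 FPKM in WT replicates 1 to 4. The groups came close but did not overlap. The mean was 2.26-fold lower in KO, with a log2 difference of -1.16 and an SE of 0.28 (limma adjusted p = 0.00690). This was the smallest called change of the 10 genes. After each library's trend against transcript GC content was removed the difference was -0.33 (limma adjusted p = 0.407), and 62.5% of its longest coding transcript is G or C, the highest share among the 10 genes. The 3′ end of Pkmyt1 overlaps Paqr4 on the other strand, which was at 0.119 to 4.73 FPKM in KO and 3.997 to 9.18 FPKM in WT, and whether counting used strand is not given in the sources used here.

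Cdc25b encodes the phosphatase that removes the inhibitory phosphates from CDK1, and mouse oocytes that lack it stay in prophase. The gene (ENSMUSG00000027330, chromosome 2, plus strand, 131186949 to 131198497) had 1.08, 0.0553, 0.495 and 1.21 FPKM in KO replicates 1 to 4 and 7.53, 8.05, 7.63 and 4.58 FPKM in WT replicates 1 to 4. Every KO library was below every WT library, and KO replicate 2 held 3 reads. The start of Cdc25b overlaps Spef1 on the other strand, which was at 0 to 0.672 FPKM in KO and 0.259 to 1.54 FPKM in WT, and the same limit on strand applies. The mean was 9.8-fold lower in KO, with a log2 difference of -2.25 and an SE of 0.32 (limma adjusted p = 0.000325, with p = 0.0286 by the exact permutation test). The transcripts for a brake and for its release were both lower in KO.

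Mos (ENSMUSG00000078365, chromosome 4, minus strand, 3870657 to 3872105) had 0, 0.285, 0 and 0 FPKM in KO replicates 1 to 4 and 29.9, 17.6, 11.5 and 35.1 FPKM in WT replicates 1 to 4. The KO value rested on 6 reads in replicate 2 and the WT values on 1334 reads. In the 3 KO libraries without a read, 3 reads would have given 0.174 to 0.216 FPKM. The mean was 330.4-fold lower in KO, and the log2 difference was -4.41 (SE 0.35, limma adjusted p = 8.41e-06). As for Wee2, the filter fixed p = 0.0286 in the exact permutation test, which adds no support.

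GPR3 is a receptor that signals without an added ligand and holds cAMP high in the oocyte. Gpr3 (ENSMUSG00000049649, chromosome 4, minus strand, 133209340 to 133212536) had 0.0938, 0, 0.307 and 0.688 FPKM in KO replicates 1 to 4 and 10.8, 5.30, 5.85 and 8.88 FPKM in WT replicates 1 to 4. The groups were far apart, with 31 reads in KO and 834 in WT. The mean was 28.3-fold lower in KO, with a log2 difference of -2.76 and an SE of 0.31 (limma adjusted p = 7.83e-05). Here too the filter fixed p = 0.0286 in the exact permutation test, which adds no support. The start of Gpr3 overlaps Cd164l2 on the other strand, which was at 0.79 to 9.01 FPKM in KO and 203.2 to 306.9 FPKM in WT (limma adjusted p = 3.79e-06), so if counting ignored strand, reads of the shared stretch cannot be told apart. Its relatives Gpr6 and Gpr12 were at 0 in all 8 libraries.

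Pde3a (ENSMUSG00000041741, chromosome 6, plus strand, 141249269 to 141507448), which encodes the main cAMP phosphodiesterase of oocytes, had 0.0269, 1.05, 1.08 and 0.763 FPKM in KO replicates 1 to 4 and 4.04, 4.08, 7.47 and 4.12 FPKM in WT replicates 1 to 4. Every KO library was below every WT library. The mean was 6.75-fold lower in KO, with a log2 difference of -1.79 and an SE of 0.33 (limma adjusted p = 0.00149, with p = 0.0286 by the exact permutation test). Its relative Pde3b had 2.86 to 4.49 FPKM in KO and 1.19 to 3.02 FPKM in WT and was not called (limma adjusted p = 0.0898). The receptor that raises cAMP and the enzyme that breaks it down were both lower in KO.

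**Figure D3:**
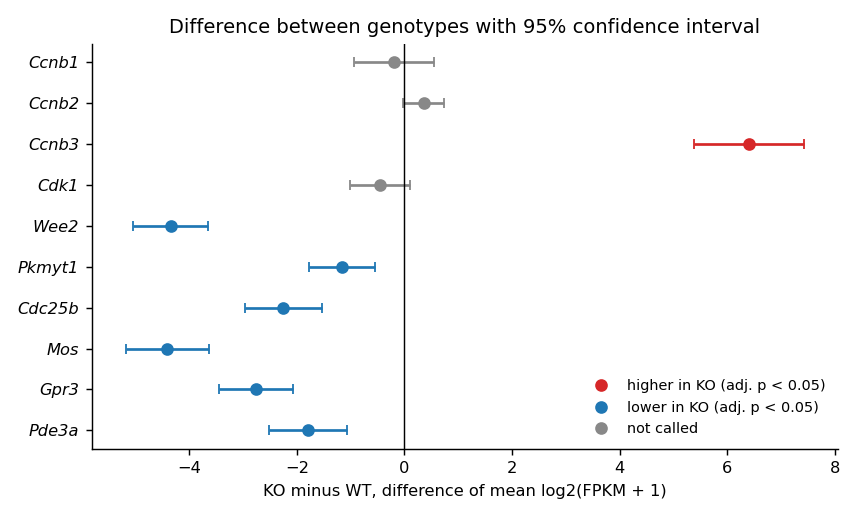
Difference of mean log2(FPKM + 1), KO minus WT, for each of the 10 genes (4 libraries per genotype), with the 95% confidence interval from limma. Ccnb3 stands at 6.40, the intervals of Ccnb1, Ccnb2 and Cdk1 hold 0, and the other 6 genes lie between -4.41 and -1.16.

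The order of the 10 genes by level differed between the genotypes. Within a genotype the order is approximate, as FPKM is scaled to all annotated exons of each gene. In KO Ccnb3 came first and Ccnb2 next, with ranges apart from each other and from those below. Cdk1 and Ccnb1 followed at means of 41.3 and 40.6 FPKM with overlapping ranges, then Pkmyt1 at 9.88 FPKM, apart from both. Pde3a, Cdc25b, Gpr3, Wee2 and Mos had KO means from 0.73 to 0.0712 FPKM, and neighbours among them overlapped. In WT Ccnb2 came first at 129.3 FPKM, apart from Cdk1 at 58.7 and Ccnb1 at 45.1 FPKM, which overlapped. Wee2, Mos and Pkmyt1 lay between 22.3 and 23.7 FPKM with overlapping ranges, and Gpr3, Cdc25b and Pde3a between 4.93 and 7.71 FPKM. Ccnb3 was the lowest in WT at 3.60 FPKM, with a range that overlapped that of Pde3a.

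The profile most like that of Ccnb3, by the root-mean-square difference of log2(FPKM + 1) over 8 libraries after the WT mean of each gene was subtracted, was that of H2bfm on chromosome X, with a difference of 0.71. Magea10 on chromosome X (0.82), Meioc on chromosome 11 (0.86), Dmrtc2 on chromosome 7 (0.91) and Reg2 on chromosome 6 (0.96) came next among 10857 genes. Tested genes without a symbol, or named only as predicted, clone or sequence entries, were left out of this ranking. Reg2 had a mean of 175.0 FPKM in KO and 4.76 FPKM in WT. The profiles nearest to Cdk1 were those of Aspscr1, Camkmt, Isca1, Tdp1 and Arl3, with differences of 0.15 to 0.17. Cdk1 itself was not called, and none of the 5 is a cyclin or a CDK.

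In the 3′ untranslated regions, all 10 genes were below the median density of tandem CAC, that is, CAC followed by another CAC after 1 to 12 bases, a pattern that RBPMS proteins bind. The median over 11090 tested genes was 2.17 per kilobase, and 76.3% held at least 1. Pde3a had 18 such pairs in 8555 bases (2.10 per kilobase), Cdk1 6 in 3352 bases and Gpr3 2 in 1027 bases. Ccnb1, Wee2 and Cdc25b had 1 each, and Ccnb2, Ccnb3, Pkmyt1 and Mos had 0. The regions of Ccnb2, Ccnb3, Pkmyt1 and Mos were short, with 227, 234, 124 and 126 bases against a median of 1078. Cytoplasmic polyadenylation elements, searched as TTTTAT or TTTTAAT, occurred 4 times in Ccnb1, 2 times each in Cdk1, Wee2 and Gpr3, 17 times in Pde3a, 1 time each in Ccnb2 and Ccnb3 and 0 times in Pkmyt1, Cdc25b and Mos, and 61.7% of tested genes held at least 1. These counts are of the longest coding transcript in GENCODE M21, and which transcript the oocytes use was not examined.

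Other genes of the pathway were read from 4 lists. Of 23 tested cyclins, CDKs and CDK inhibitors, 10 were higher and 4 lower, and 60.9% were called, where 17.7% of all tested genes were higher, 25.6% lower and 43.4% called. Their median log2 difference was 0.77, against -0.12 over all tested genes, or 0.00 over all of them after median-of-ratios scaling. Ccno, a cyclin gene known for its part in multiciliated cells, had 0.435, 3.98, 2.92 and 8.02 FPKM in KO replicates 1 to 4 and 200.5, 197.0, 182.4 and 299.4 FPKM in WT replicates 1 to 4. It was 57.2-fold lower in KO (limma adjusted p = 8.13e-06). Ccnh, a subunit of the kinase that activates CDK1, was 4.18-fold higher in KO, at 118.1 to 194.1 FPKM against 24.3 to 53.9 FPKM in WT (limma adjusted p = 0.000148). Its partners in that complex, named after their values were seen, were higher as well. Cdk7 was at 33.5 to 60.4 FPKM in KO and 16.0 to 24.8 FPKM in WT (limma adjusted p = 0.00595), and Mnat1 at 12.9 to 16.0 FPKM in KO and 5.66 to 8.86 FPKM in WT (limma adjusted p = 0.00918). Ccne2, a cyclin of S phase entry, was 3.96-fold higher (limma adjusted p = 0.000201), and Cdkn2d, a CDK inhibitor, 2.27-fold higher (limma adjusted p = 0.000843). Ccna2, the cyclin A of dividing cells, was 2.78-fold lower (limma adjusted p = 0.00632), and Ccna1, the germ cell form, was under the filter, with at most 2.39 FPKM in KO and 0.549 FPKM in WT. The number higher fell to 6 without KO replicate 1, WT replicate 1 or WT replicate 4, and without the filter.

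Among 19 tested genes of the CDK1 switch, 1 was higher and 4 lower, and 26.3% were called, below the 43.4% of all tested genes. The median log2 difference was 0.10. Wee1, the somatic relative of Wee2, was at 10.2 to 17.7 FPKM in KO and 16.2 to 29.5 FPKM in WT (limma adjusted p = 0.0277). Cdc25a was at 1.89 to 6.12 FPKM in KO and 7.67 to 13.4 FPKM in WT (limma adjusted p = 0.0158). Chek1, a checkpoint kinase, was 1.84-fold lower (limma adjusted p = 0.00692), and Ywhae, a 14-3-3 protein gene, 1.69-fold higher (limma adjusted p = 0.0163). Plk1, which promotes entry into division, was at 19.4 to 42.5 FPKM in KO and 25.1 to 30.5 FPKM in WT (limma adjusted p = 0.757). Cdc25c was at 0.797 to 4.43 FPKM in KO and 2.31 to 4.54 FPKM in WT (limma adjusted p = 0.209). Both counts moved with the scaling of the libraries, to 5 higher and 2 lower after median-of-ratios scaling. The number higher was 0 without WT replicate 4, 2 without WT replicate 1 and 5 without KO replicate 3, and the number lower was 1 without WT replicate 2 and 2 without WT replicate 3, WT replicate 4 or KO replicate 4.

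Of 29 further genes of the cAMP pathway, 16 were under the filter, and among the 13 tested 1 was higher and 5 lower (46.2% called, median log2 difference -0.52). That share is near the 43.4% called over all tested genes. Prkar1a, a regulatory subunit of protein kinase A, was 2.73-fold higher, at 109.9 to 145.0 FPKM in KO and 40.9 to 50.8 FPKM in WT (limma adjusted p = 9.35e-05). Prkaca, a catalytic subunit, was 2.89-fold lower, at 4.47 to 11.0 FPKM in KO and 18.3 to 22.8 FPKM in WT (limma adjusted p = 0.00140). Akap1, which anchors the kinase at mitochondria, was 5.10-fold lower (limma adjusted p = 0.00132), and the adenylyl cyclase gene Adcy9 4.79-fold lower (limma adjusted p = 0.00431). Without WT replicate 3, 2 were higher and 3 lower.

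In the list of MAP kinase and metaphase arrest genes all 9 were tested, 0 were higher and 4 lower (44.4% called, median log2 difference -0.78). The share called is near the 43.4% of all tested genes. Over all tested genes 17.7% were higher and 25.6% lower. All 9 differences were below 0, so by sign alone 0 were higher at an unadjusted p under 0.05, and limma-voom also called 0 higher. The 4 are the steps downstream of MOS. Map2k1 was at 13.6 to 19.3 FPKM in KO and 36.2 to 46.1 FPKM in WT (limma adjusted p = 0.000613), and Map2k2, the other MAP kinase kinase, at 17.4 to 29.7 FPKM in KO and 41.3 to 53.3 FPKM in WT (limma adjusted p = 0.00185). Mapk3 was 3.3-fold lower (limma adjusted p = 0.00763) and Rps6ka1, which encodes a kinase activated by MAP kinases, 3.48-fold lower (limma adjusted p = 0.00414).

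**Figure D4:**
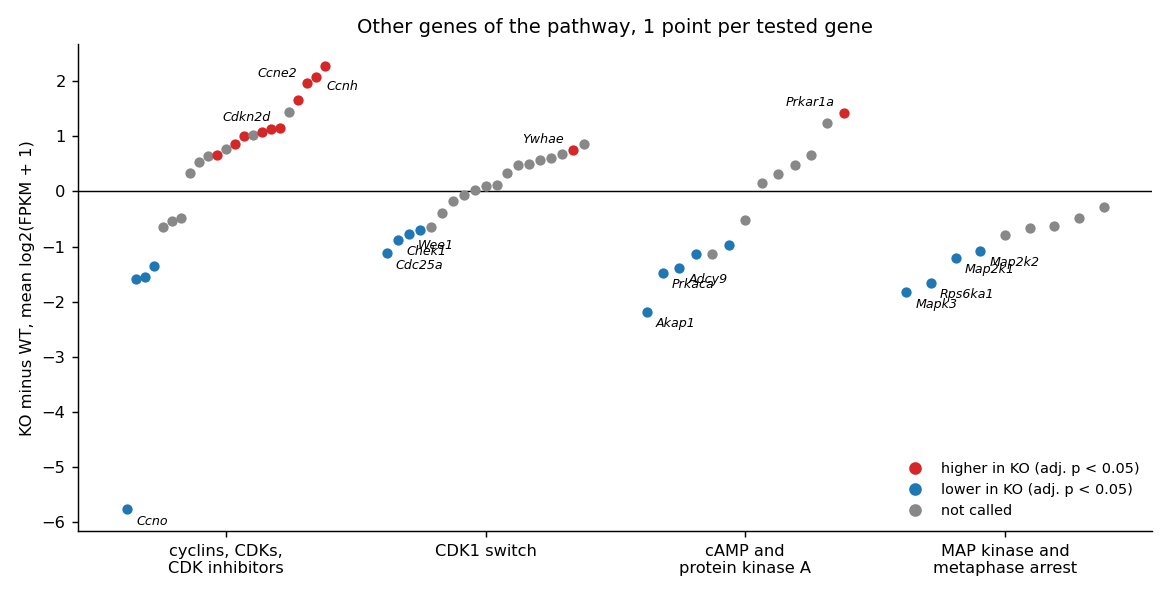
Difference of mean log2(FPKM + 1), KO minus WT, for each tested gene of the 4 lists, in order of size within a list, with the 4 called genes of smallest adjusted p named. Red points are called higher in KO, blue points lower and grey points not called. The MAP kinase list has no point above 0, and Ccno stands lowest at -5.76.

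Markers of cycling cells, which also use cyclin B and CDK1, summed to 728.4, 893.1, 546.1 and 659.7 FPKM in KO replicates 1 to 4 and to 548.8, 565.1, 397.4 and 446.2 FPKM in WT replicates 1 to 4. Of the 16 tested, 5 were higher and 4 lower in KO. Mki67, the marker most used for proliferation, was at 5.99 to 19.2 FPKM in KO and 4.25 to 16.1 FPKM in WT, highest in replicate 3 of both genotypes. The part of cycling cells in the levels of Ccnb1, Ccnb2 and Cdk1 was not tested. WT replicate 3 and KO replicates 2 and 3 were left out together for their granulosa and stromal markers, not for cycling markers. In that fit 1 of the 10 genes was called higher and 6 lower, the same counts as with all libraries. It cannot speak to cycling cells, as the libraries left out lie at both ends. KO replicate 2 had the highest cycling sum of all, and replicate 3 the lowest in both genotypes.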

How the data were processed

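RNA was sequenced from 8 libraries, 4 Rbpms2 knockout and 4 wild-type, grouped by their titles. Per the submitters' processing notes, reads were processed with cutadapt, HISAT2 and HTSeq on GRCm38 (mm10), whose versions the sources used here do not give. Deposited values were FPKM per gene, made by the authors. The labels' growth protocol speaks of a microarray, but the series type and values are those of sequencing. Symbols and lengths came from GENCODE M21 (21851 of 21959 genes had a symbol). FPKM times exon length came in steps of 1 read, with 97.1% to 97.6% of values whole within 0.02 reads, which gave depths, and every pair of libraries of 1 genotype differed by more than sampling noise, the lowest ratio of chi-square to its degrees of freedom being 33.6. Amplified reads without molecular identifiers are not independent molecules, so floors of 3 reads cover counting error only.

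The test was limma 3.58.1 (R 4.3.3), with genotype as the only term and a trended eBayes step, on log2(FPKM + 1). It took the genes that reached 1 FPKM in 4 or more libraries. For low genes this scale gives too small a change, and folds are ratios of mean FPKM. Exact two-sided permutation tests ran over 70 splits. Named were the 10 genes, up to 4 called genes per list by smallest adjusted p with the closest relatives of the 10, and 5 nearest profiles for Ccnb3 and Cdk1. The members and lists were chosen with earlier results of these data known. Alternatives were other pseudocounts, filters, scalings, a replicate block, eBayes options, array weights, GC correction and left-out libraries, and, added after the data were seen, limma-voom on recovered reads with median-of-ratios library sizes. On data simulated for knockout against wild type over 11114 genes, 17 of 94 genes changed by 1 on the log2 scale and 77 of 97 changed by 2 were called, with 3 false calls. No other genes were changed there, while 43.4% of tested genes were called in the data, so these rates do not carry over. Figures used Python 3.11.15 and matplotlib 3.10.9.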

Additional observations from a re-analysis of the deposited data

Results flagged for a closer look

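In all 4 cases below, a value stood apart from the other 3 libraries of its genotype by Dixon's test at the 95% level. There were 20 groups of 4 libraries, and for normally distributed values chance gives about 1 in 20. That rate does not hold for Wee2 and Mos in KO, where some libraries had no reads. Wee2 was at 0.832 FPKM in KO replicate 4, with 25 of the 27 KO reads, above the other KO libraries. Mos was at 0.285 FPKM in KO replicate 2, the only KO library with reads of it. Cdc25b was at 4.58 FPKM in WT replicate 4, below the other WT libraries. Pde3a was at 7.47 FPKM in WT replicate 3, above the other WT libraries.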

How the results depend on the processing

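Ccnb3, Wee2, Cdc25b, Mos, Gpr3 and Pde3a kept their direction and call under every alternative in which they were tested. The filter itself requires Wee2, Mos and Gpr3 to be lower in KO, so their kept direction under filtered settings adds no support. Without a filter they were called lower (limma adjusted p = 8.61e-05 for Wee2, 0.000157 for Mos and 0.000708 for Gpr3). A filter at 5 FPKM left out Cdc25b and Pde3a, and 4 of the 10 genes were then called lower. Log2 differences ran from 5.29 to 7.27 for Ccnb3, from -8.74 to -2.43 for Wee2, from -8.45 to -2.41 for Mos, from -5.81 to -1.25 for Gpr3, from -3.91 to -1.06 for Cdc25b and from -3.37 to -0.78 for Pde3a. The pseudocount of 5 gave the ends nearest 0 and limma-voom the far ends. Pkmyt1 was at -0.33 and not called after the GC correction and after the GC correction with the replicate block (limma adjusted p = 0.407 and 0.239), and was called under every other setting run. Cdk1 was called at -0.58 with the GC correction and the replicate block (limma adjusted p = 0.0464), and leaving out 1 library gave -0.66 to -0.31. The cause was not tested. Ccnb1 and Ccnb2 were called under no setting. Ccnb1 was at 0.09 without KO replicate 3 and below 0 otherwise.

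The number higher among cyclins, CDKs and inhibitors was 6 without a filter and 6 to 11 with 1 library left out. Among CDK1 switch genes the number higher was 2 with a pseudocount of 0.1, with either other filter, with totals made equal or with the GC correction, 3 without WT replicate 3 and KO replicates 2 and 3, 5 with median-of-ratios or quantile scaling or limma-voom, 6 with array weights and 0 to 5 with 1 library left out. The number lower there was 2 with median-of-ratios scaling or limma-voom and 1 to 4 with 1 library left out. Among cAMP genes the number higher was 2 with median-of-ratios scaling or limma-voom, 3 with quantile normalization and 1 to 2 with 1 library left out, and the number lower 3 to 6 with 1 library left out. The median of all genes was -0.12, 0.00 after median-of-ratios and 0.04 after quantile scaling, and 40.9%, 48.0% and 49.9% of calls were higher. Deviations of same-numbered libraries correlated at -0.05 to 0.36, and those of KO and WT libraries with different numbers at -0.34 to 0.33. So few pairs cannot settle whether the numbers pair libraries. The replicate block alone left 1 of the 10 genes higher and 6 lower.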
